A study of Mus musculus with 12 samples.

Results

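The insulin-like growth factor (IGF) system of the mouse aorta was described by 10 genes, namely the ligands Igf1 and Igf2, the receptor Igf1r, the binding proteins Igfbp2, Igfbp3, Igfbp4, Igfbp5 and Igfbp6, and the proteases Pappa and Pappa2. Every non-control probe that carried one of these gene names was taken, which gave 10 of 34796 gene names and 17 of 55681 probes. Pappa2 was chosen by its high value in challenged mice given rapamycin, compared with challenged mice given vehicle, so that this drug comparison is given below as a description, with no p-value for any of the 10 genes and nothing read from how many passed. A probe entered the tests where some group had it well above background on each of its 3 arrays, and 13 probes of 8 genes did. All 13 were well above background on all 12 arrays.

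IGF-1 is a growth and survival factor made by liver and by many mesenchymal cells, and it acts through the tyrosine kinase IGF1R on the PI3-kinase, Akt and mTOR branch. IGF-binding proteins hold the ligands in the extracellular space and can block or prolong their action. The metalloproteinases PAPP-A and PAPP-A2, encoded by Pappa and Pappa2, cut binding proteins and so release the ligand, PAPP-A acting mainly on IGFBP-4 and PAPP-A2 on IGFBP-3 and IGFBP-5. Rapamycin inhibits mTOR, which lies downstream of this receptor.

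The study asked how rapamycin changes gene expression in a mouse model of aortic dissection, in C57BL/6J mice at day 3. The challenge, called BA here, was a continuous infusion of β-aminopropionitrile (BAPN, 150 mg/kg/day), which inhibits collagen crosslinking, with angiotensin II (AngII, 1 µg/kg/min). The 4 groups of 3 mice were labelled DMSO (vehicle only), rapamycin (2 mg/kg/day), BA+DMSO and BA+rapamycin, and each mouse gave 1 array of total RNA from a segment of its aorta. Drug and vehicle were injected into the peritoneum, and the series text lists the DMSO group as vehicle alone at day 3. The titles of its samples call them "Pre", which could also mean mice taken before any challenge, and whether they had received vehicle cannot be told from the arrays. As the tissue was not separated into its cells, fewer cells of a type and less RNA per cell cannot be told apart.

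Levels are log2 signal minus the 75th percentile of the same array, so that 0 is the level of that percentile. Differences were tested with limma over 27801 probes, and "called" means an adjusted p under 0.05. The 75th percentile itself, a measure of array brightness, was 221 to 280 intensity units in DMSO and 257 to 337 in rapamycin, but 78.1 to 246 in BA+DMSO, and it reached no more than 74.6 to 109 in BA+rapamycin. Brightness thus moved with the challenge, and its part in the results was not tested beyond the values given. No slide held both DMSO and challenged arrays, while rapamycin arrays were on both slides (1 beside DMSO, 2 beside the 6 challenged arrays). BA+DMSO arrays were the least alike, with pairwise correlations over probes from 0.912 to 0.961 against 0.974 or more within the other groups. All 8 smooth muscle markers, such as Acta2 and Myh11, were well above background on all 12 arrays, as the label aorta requires.

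Of the 8 tested members, 5 were called for the challenge in vehicle-treated mice (BA+DMSO minus DMSO), 4 higher and 1 lower, beside 20.5% of all probes tested (9.65% higher and 10.8% lower). Igf1, Igfbp2, Igfbp4 and Pappa2 rose and Igf1r fell. In 5 of the 8 the groups did not overlap, as in 34.6% of all probes. The median difference over the 8 genes was 0.94 on the log2 scale, beside -0.04 over all probes tested. For the challenge in rapamycin-treated mice (BA+rapamycin minus rapamycin), 6 were called, 4 higher and 2 lower, beside 41.7% of all probes (18.9% higher and 22.9% lower). In all 8 the groups did not overlap, as in 65.9% of all probes. Pappa2, which was called in both comparisons, was chosen by its level on the BA+rapamycin arrays against the BA+DMSO arrays. The counts and medians of both comparisons are thus in part fixed by the choice, and nothing is read from the call of Pappa2. Under rapamycin Igfbp6 joined the genes that fell. The median difference there was 1.25, beside -0.08 over all probes. Under the study's rule, an unadjusted p under 0.01 with a 4-fold change, 2 members passed for the challenge with vehicle, beside 2.51% of all probes, and 2 under rapamycin, beside 5.14%. With the slide as a fixed block, which leaves a single rapamycin array to tie the slides together, no member was called for the challenge with vehicle (0 of 8). The slide and this challenge can hardly be told apart. The sample titles carry dates, of which 3 are shared by 8 arrays of different groups, a single BA+DMSO array among them. A fit of these 8 arrays with the title date as a block therefore compares single challenged arrays, with 2 residual degrees of freedom that come from other groups.

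**Figure D1:**
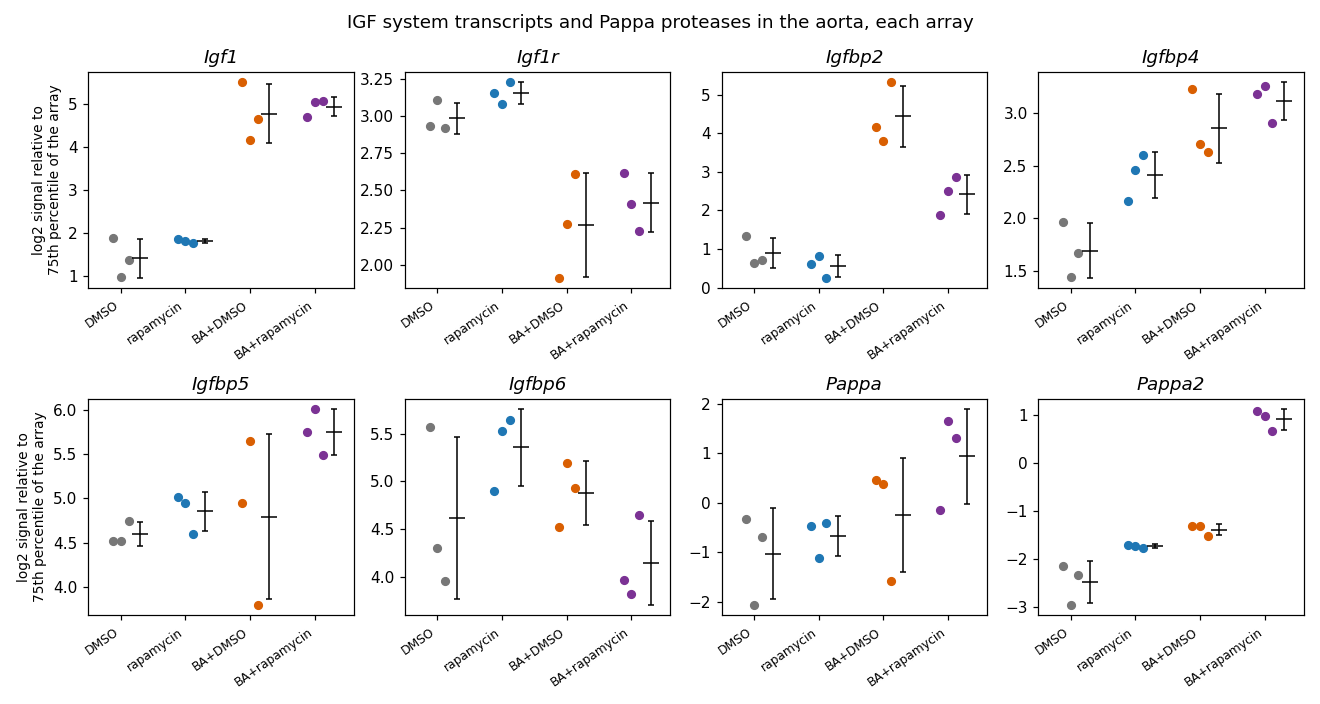
Log2 signal relative to the 75th percentile of the array for the 8 tested genes (1 panel each, own vertical scale), 1 point per array in replicate order, with the group mean and SD as a horizontal mark with bars (n = 3). Igf1 and Igfbp2 are higher on all 6 challenged arrays than on the 6 others, and Pappa2 is above 0 only on the 3 BA+rapamycin arrays.

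The ligand Igf1 was read by 5 probes of 60 bases. The probe with the highest mean, A_55_P2031631, lies at chr10:87393581-87393640 on the plus strand (build mm9, as the array files give it). A neighbouring probe, A_55_P2085984, shares 40 of its bases and so is no separate reading. Bases 16 to 45 of the first are shown with the shared bases in capitals, and below it the first 30 bases of A_55_P2085979, at chr10:87378456-87378515, which showed the smallest rise.
Igf1 A_55_P2031631: CAAAGATGGGCATTTCCCCCAATGAaatat
Igf1 A_55_P2085979: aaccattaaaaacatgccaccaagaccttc

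Igf1 levels at A_55_P2031631 were 1.88, 0.97 and 1.36 in DMSO and 5.51, 4.16 and 4.64 in BA+DMSO. Every challenged array was far above every vehicle array. The mean rose by 3.36 (SE 0.32, limma adjusted p = 0.000219), a 10.3-fold difference, and 129 of the 27801 probes had a larger rise. Levels were 1.85, 1.81 and 1.77 in rapamycin and 4.69, 5.04 and 5.07 in BA+rapamycin. Under rapamycin the challenge difference was 3.13 (limma adjusted p = 0.000169), and within the slide that held both groups it was 3.15 (limma adjusted p = 0.00800). The groups also stood apart before scaling, with 523 to 1032 intensity units in DMSO and 1391 to 6127 in BA+DMSO. With the slide as a fixed block the challenge difference with vehicle was 3.42 (limma adjusted p = 0.0985).

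All 5 Igf1 probes were called for both challenge comparisons, but the sizes differed. On the array, A_55_P2085979 is annotated to a different Igf1 transcript record from the other Igf1 probes. The part of this in its smaller rise was not tested. The rise with vehicle was 1.30 (SE 0.20) at A_55_P2085979, against 2.60 to 3.38 at the other probes. Within each array, A_55_P2031631 exceeded A_55_P2085979 by 0.59 to 1.13 in DMSO and by 1.91 to 3.56 in BA+DMSO. The same excess was 1.00 to 1.23 in rapamycin and 2.55 to 2.67 in BA+rapamycin. The groups did not overlap in either pair, and an exact two-sided permutation test gave p = 0.1, the smallest that 3 arrays against 3 allow (0.15 after Benjamini-Hochberg adjustment over 6 such comparisons). A_55_P2085979 was singled out after its smaller rise was seen, and no such test could fall under 0.05, so these p-values decide nothing. That probe was not alone. The excess over A_55_P2085974 was 0.37 to 0.94 in DMSO against 1.11 to 2.19 in BA+DMSO, and 0.20 to 0.75 in rapamycin against 1.49 to 1.92 in BA+rapamycin, again without overlap and with the same exact p. The excess over A_55_P2031636 was 2.49 to 3.22 in DMSO and 2.75 to 3.81 in BA+DMSO, which overlap (exact two-sided permutation p = 0.2).

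**Figure D2:**
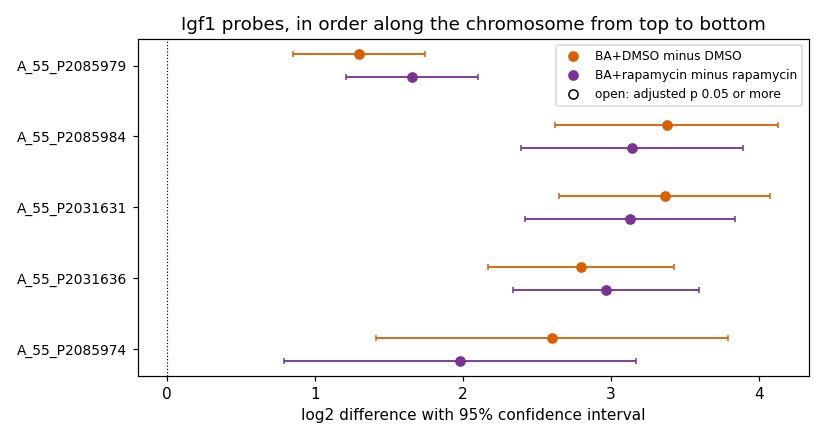
Log2 difference with its 95% confidence interval at each of the 5 Igf1 probes, listed in chromosome order, for both challenge comparisons (n = 3 arrays a group). The first probe, A_55_P2085979, shows the smallest rises, 1.30 and 1.66.

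Igf2, the fetal ligand, had 1 probe. It was not well above background on any of the 12 arrays and was not tested. The imprinted non-coding RNA H19, which neighbours Igf2 on the chromosome, was measured and is described with the other pathway genes.

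Igf1r, the signalling receptor for both ligands, moved the other way from Igf1. Levels were 2.93, 3.11 and 2.92 in DMSO, 3.15, 3.08 and 3.23 in rapamycin, 1.91, 2.28 and 2.61 in BA+DMSO, and 2.62, 2.41 and 2.23 in BA+rapamycin. All 6 challenged arrays lay below all 6 unchallenged ones. Igf1r fell by 0.72 with vehicle (SE 0.19, limma adjusted p = 0.0258) and by 0.73 under rapamycin (limma adjusted p = 0.0136). The first call was lost in 10 of 18 alternatives, among them without any of the DMSO replicates or without BA+DMSO replicate 1 (limma adjusted p from 0.0643 to 0.108), with no filter on dim probes (limma adjusted p = 0.0813) and with array brightness as a covariate, where the difference was -0.54 (limma adjusted p = 0.116). The second call was lost in 5 of 19 alternatives, among them within 1 slide, at -0.74 (limma adjusted p = 0.102).

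Igfbp2 showed the largest rise of the members with vehicle. It encodes a binding protein with a preference for IGF-2. Its leading probe, A_55_P2056729, lies at chr1:72898677-72898736 on the plus strand (mm9), and its first 30 bases are shown to identify the transcript it reads.
Igfbp2 A_55_P2056729: catctcttctacaacgagcagcaggagact

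Igfbp2 levels were 1.33, 0.63 and 0.71 in DMSO and 0.62, 0.81 and 0.25 in rapamycin. After the challenge they were 4.17, 3.81 and 5.33 with vehicle and 1.88, 2.49 and 2.87 with rapamycin. The 4 groups thus formed 3 steps, with the BA+rapamycin arrays between the unchallenged and the BA+DMSO arrays and no overlap between steps. Before scaling only the BA+DMSO arrays stood apart, at 1091 to 9943 intensity units, while the BA+rapamycin arrays, at 404 to 789, overlapped those of DMSO (362 to 704) and rapamycin (397 to 477). Igfbp2 rose by 3.55 (SE 0.39, limma adjusted p = 0.000404) with vehicle, which is 11.7-fold, and by 1.85 (limma adjusted p = 0.00497) under rapamycin, which is 3.62-fold. The second probe, A_66_P135391, rose by 3.42 and 1.49.

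Between the challenged groups, Igfbp2 differed by -2.02 (95% confidence interval -2.88 to -1.16) and by -2.27 at the second probe, given here as a description. It ranged from -1.57 without BA+DMSO replicate 3 to -2.34 without BA+DMSO replicate 2, and both groups lay on the same slide. Of all probes tested, 35 had a larger fall. Without the challenge, the drug difference of Igfbp2 was -0.33 (limma adjusted p = 1.00). The difference between the drug differences with and without the challenge was -1.69, which contains the comparison that chose Pappa2 and is likewise a description. Mesothelial and proliferation markers had the most negative medians of the marker lists between the challenged groups, with none of them called. Macrophage and adipocyte medians were -0.19 and -0.16. Those of smooth muscle, endothelial, fibroblast and striated muscle markers were 0.13, 0.14, 0.16 and 0.38. The median difference was -1.59 over 5 mesothelial markers, whose summed level, in multiples of the 75th percentile, was 1.47 to 11.3 with rapamycin. Over 5 proliferation markers the median was -1.40, with sums of at most 13.6 with rapamycin. The sums with vehicle were 6.20 to 13.5 and 11.6 to 56.2, and the part of these cells in the Igfbp2 values was not tested.

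Igfbp3, the main carrier of IGF-1 in plasma, had 2 probes, of which 1 was well above background on a single array and the other on none. It was not tested.

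Igfbp4 encodes the main substrate of PAPP-A. Its levels were 1.96, 1.44 and 1.67 in DMSO, 2.17, 2.46 and 2.60 in rapamycin, 3.23, 2.71 and 2.63 in BA+DMSO, and 3.18, 3.26 and 2.91 in BA+rapamycin. The DMSO arrays were the lowest 3 of the 12. Igfbp4 rose by 1.16 with vehicle (SE 0.22, limma adjusted p = 0.00509) and by 0.71 under rapamycin (limma adjusted p = 0.0252). Neither rise was seen before scaling to the 75th percentile. In intensity units the DMSO arrays read 702 to 1089 and the BA+DMSO arrays 510 to 1521, which overlap, and the BA+rapamycin arrays, at 714 to 988, lay below the rapamycin arrays, at 1156 to 2048. The first call was lost in 4 of 18 alternatives. The second was lost in 8 of 19, besides the 1 that turned its sign. Among the 8 were the fits without rapamycin replicate 1 or 2 or without BA+rapamycin replicate 1 or 2 (limma adjusted p from 0.0563 to 0.0943). Within 1 slide the second difference was 0.58 (limma adjusted p = 0.155).

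Igfbp5, a substrate of PAPP-A2 made by smooth muscle, was not called in any comparison. Its levels were 4.52, 4.52 and 4.75 in DMSO, 5.01, 4.95 and 4.60 in rapamycin, 4.94, 5.65 and 3.79 in BA+DMSO, and 5.76, 6.01 and 5.49 in BA+rapamycin. The BA+DMSO arrays spread over a wider range than the others, and their lowest value was on replicate 3, the brightest challenged array. The challenge difference with vehicle was 0.20 (limma adjusted p = 0.737). It turned to -0.23 without BA+DMSO replicate 2 and was 0.70 without replicate 3 (limma adjusted p = 0.0454). Under rapamycin it was 0.90 (limma adjusted p = 0.0729), with no overlap between groups. With array brightness as a covariate the sign turned in both, to -0.76 with vehicle (limma adjusted p = 0.0127) and -0.78 under rapamycin. Before scaling, the challenged arrays lay below the unchallenged ones in both comparisons, at 3408 to 4065 intensity units in BA+DMSO against 5953 to 6418 in DMSO.

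Igfbp6, a binding protein that prefers IGF-2, passed the test for the challenge in rapamycin-treated mice and not in vehicle-treated mice. Levels were 5.57, 4.30 and 3.96 in DMSO and 4.52, 5.19 and 4.93 in BA+DMSO, which overlap. They were 4.89, 5.52 and 5.65 in rapamycin and 3.96, 3.82 and 4.65 in BA+rapamycin, which do not. The challenge difference was 0.27 with vehicle (limma adjusted p = 0.672), and it turned to -0.06 without DMSO replicate 3. Under rapamycin Igfbp6 fell by 1.21 (SE 0.40, limma adjusted p = 0.0331), and by 1.44 within 1 slide (limma adjusted p = 0.0347). That call was lost in 7 of 19 alternatives. Among them were the fits without rapamycin replicate 2 or 3 or BA+rapamycin replicate 1 or 2 (limma adjusted p from 0.0822 to 0.111). The difference between the 2 challenge effects was -1.48 and did not pass its own limma test. It is given as a description because it contains the comparison that chose Pappa2.

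**Figure D3:**
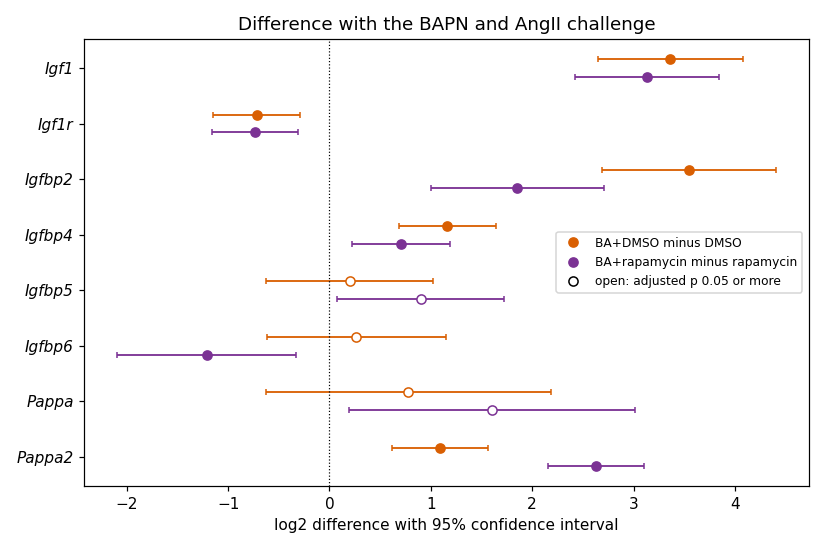
Log2 difference with its 95% confidence interval for the challenge with vehicle and under rapamycin, 1 row per gene (n = 3 arrays a group, filled points called at a limma adjusted p under 0.05). Igf1, Igfbp2, Igfbp4 and Pappa2 are higher and Igf1r lower in both comparisons, and Igfbp6 is called in the second only. Pappa2 was chosen on arrays of both comparisons, so its points are a description.

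The proteases were read by 1 usable probe each, shown by their first 30 bases because each level rests on that single sequence. The Pappa2 probe lies at chr1:160641903-160641962 on the minus strand and the Pappa probe at chr4:65018429-65018488 on the plus strand (mm9).
Pappa2 A_55_P1984745: cagtgaaaggggctgatctactgtattgta
Pappa A_55_P1977628: gatctgacacacacacatatacacaaataa

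Pappa2 levels were -2.15, -2.96 and -2.32 in DMSO, -1.70, -1.72 and -1.77 in rapamycin, -1.32, -1.31 and -1.52 in BA+DMSO, and 1.08, 0.97 and 0.66 in BA+rapamycin. The 4 groups did not overlap one another, and the mice given both challenge and drug were the highest. Pappa2 was 2.63 higher with the challenge under rapamycin (SE 0.21), which is 6.20-fold, and 2.65 higher within 1 slide. This comparison shares its BA+rapamycin arrays with the one that brought the gene into the list. Its values are therefore a description, and no p-value is given. With vehicle the challenge rise was 1.09 (SE 0.21), a 2.13-fold difference. Its BA+DMSO arrays were the other side of the comparison that chose the gene, so this too is a description. Before scaling that smaller rise was not seen as a separation, with 34.3 to 63.1 intensity units in DMSO and 31.4 to 85.8 in BA+DMSO.

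Between the challenged groups Pappa2 differed by 2.29, and 21 of the 27801 probes had a larger rise. The BA+rapamycin arrays, which were dimmer on average, read 146 to 230 intensity units before scaling, and the BA+DMSO arrays 31.4 to 85.8. Over the alternatives run the Pappa2 difference was 1.40 (normexp background correction) to 2.45 (the series table). Igfbp2 and Pappa2 were the 2 members whose challenged groups did not overlap, beside 14.5% of all probes tested, and Pappa2 was the 1 member past the threshold, beside 0.281% of all probes. The rule used this comparison, so nothing is read from these counts or from the size, rank and range of the Pappa2 difference. The second Pappa2 probe, A_52_P574993, was not well above background on any array and so gave no second reading of the gene. Its recorded position spans 1954 bases, more than its length.

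Pappa levels varied more within groups than Pappa2 levels did. They were -0.32, -2.07 and -0.68 in DMSO, -0.48, -1.12 and -0.40 in rapamycin, 0.46, 0.38 and -1.57 in BA+DMSO, and -0.15, 1.65 and 1.31 in BA+rapamycin. The challenge difference was 0.78 (SE 0.64, limma adjusted p = 0.413) with vehicle and 1.60 (limma adjusted p = 0.0637) under rapamycin, where the groups did not overlap, and neither passed. Leaving out single arrays moved the first from 0.26 (without DMSO replicate 2) to 1.44 (without BA+DMSO replicate 3). Without BA+rapamycin replicate 1 the second was 2.15 and passed (limma adjusted p = 0.0292). Between the challenged groups Pappa differed by 1.18, and by 0.52 without BA+DMSO replicate 3. Before scaling, all 4 groups overlapped, from 63.7 to 268 intensity units.

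Rapamycin alone (rapamycin minus DMSO) gave no called member in limma (0 of 8), beside 0.0036% of all probes tested, or 1 probe. At an unadjusted p under 0.05 there were 2, beside 4.27%. Igfbp4 was 0.72 higher (limma adjusted p = 0.810) and Pappa2 was 0.74 higher (limma adjusted p = 0.751). These were the 2 members whose groups did not overlap, beside 21.5% of all probes. The median difference of the 8 genes was 0.38, beside -0.01 over all probes. The 95% confidence interval of the drug difference was -0.31 to 1.11 for Igf1 and -0.26 to 0.60 for Igf1r. Within the 1 title date that 2 DMSO and 2 rapamycin arrays share, the difference was 0.98 for Igfbp4 (limma adjusted p = 0.196) and 0.89 for Pappa2 (limma adjusted p = 0.304).

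No member was called in limma for a dependence of the drug difference on the challenge (0 of 8, and 0% of all probes). Of the members 3, namely Igfbp2, Igfbp6 and Pappa2, had an unadjusted p under 0.05, as had 6.12% of all probes. The values contain the comparison that chose Pappa2, whose own value was 1.54, so nothing is read from these counts.

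Across the 12 arrays the genes most like Pappa2, among 14874 genes with 1 probe each, were Gm6404, Rpl8, Rpl37, Rps20 and Rpl13, with Pearson correlations from 0.973 to 0.982. Apart from Gm6404, these 4 encode ribosomal proteins. The genes most like Pappa were Dub1, 4930512M02Rik, Lefty2, Exoc3l2 and Tmem146, with correlations from 0.970 to 0.983. The arrays of a group share their treatment and much of their brightness, so these values are a description.

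Upstream sequences from RefSeq (GRCm38.p6) were matched by symbol for 9 of the 10 members, giving 13 windows of 250 bases before an annotated start. The 6 motifs searched, each on both strands, were AP-1 (TGAGTCA), the cAMP response element (TGACGTCA), the forkhead site of FOXO factors (GTAAACA), the E-box (CACGTG), the GC box (GGGCGG) and the TATA box (TATAAA). None of these motifs contains another. Of the members higher with the challenge, Igfbp4 is not shown and its motif is given below. The windows of Igf1, Igfbp2 and Pappa2 are shown 5′ to 3′ on the gene's strand with matches in capitals.
Igf1, chr10:87860861-87861110, plus strand: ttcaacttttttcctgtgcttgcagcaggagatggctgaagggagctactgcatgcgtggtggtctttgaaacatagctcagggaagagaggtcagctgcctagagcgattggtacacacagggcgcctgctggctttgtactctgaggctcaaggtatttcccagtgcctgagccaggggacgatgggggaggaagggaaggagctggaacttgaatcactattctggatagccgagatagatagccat
Igfbp2, first start, chr1:72824230-72824479, plus strand: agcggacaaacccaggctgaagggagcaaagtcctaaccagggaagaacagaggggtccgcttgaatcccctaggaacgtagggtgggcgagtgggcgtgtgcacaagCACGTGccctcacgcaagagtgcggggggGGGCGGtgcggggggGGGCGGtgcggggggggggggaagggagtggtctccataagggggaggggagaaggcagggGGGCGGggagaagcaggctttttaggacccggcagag
Igfbp2, second start, chr1:72825137-72825386, plus strand: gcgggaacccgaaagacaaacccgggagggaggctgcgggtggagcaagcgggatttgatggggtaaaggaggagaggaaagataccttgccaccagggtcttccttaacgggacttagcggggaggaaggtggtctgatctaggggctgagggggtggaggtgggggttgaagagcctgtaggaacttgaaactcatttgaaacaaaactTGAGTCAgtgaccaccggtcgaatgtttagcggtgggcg
Pappa2, chr1:158958176-158958425, minus strand: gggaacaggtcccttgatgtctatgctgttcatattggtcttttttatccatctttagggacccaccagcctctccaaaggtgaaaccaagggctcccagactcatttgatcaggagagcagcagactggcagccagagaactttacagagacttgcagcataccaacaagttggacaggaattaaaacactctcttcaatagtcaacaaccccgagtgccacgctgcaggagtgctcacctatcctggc

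The windows of Igf1 and Pappa2 held none of the 6 motifs. The first Igfbp2 window held 3 GC boxes, 37, 98 and 113 bases before the start, and 1 E-box 142 bases before it, and the second held 1 AP-1 match 39 bases before its start. Over all 32851 windows, 32.7% held a GC box, 6.02% an E-box and 4.46% an AP-1 match. The TATA box was found in 12.4% of all windows, the forkhead site in 3.17% and the cAMP response element in 1.55%. Among the other members, Igf1r had 2 GC boxes, the 4 Igf2 windows together had 3, and Igfbp4 and Igfbp6 each had a TATA box, 28 and 148 bases before the start. A match to these letters is a description and does not show that a factor bound there. The GC content of the windows was 52.8% for Igf1, 49.2% for Pappa2 and 67.2% for the first start of Igfbp2, beside a median of 52.4%.

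Other genes of the pathway came from a list of 37, of which 29 had a tested probe. For the challenge with vehicle 8 were called, 4 higher and 4 lower, beside 20.5% of all probes tested, with a median difference of -0.18. Under rapamycin 14 were called, 5 higher and 9 lower, beside 41.7%, with a median of -0.34. None of the 29 was called in limma for rapamycin alone, and 3 had an unadjusted p under 0.05, beside 4.27% of all probes. None was called for rapamycin in challenged mice, where 5 had such a p, beside 20.1% of all probes. None was called for the dependence of the drug difference on the challenge, where 3 had such a p, beside 6.12%.

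Among genes that act on binding proteins or their proteases, Adam12 rose. It encodes a metalloproteinase that cleaves IGFBP-3 and IGFBP-5. Its levels were -3.47, -3.82 and -3.16 in DMSO and -0.54, -1.56 and -0.68 in BA+DMSO. The rise was 2.56 (SE 0.27, limma adjusted p = 0.000334) with vehicle and 2.50 (limma adjusted p = 0.000207) under rapamycin. Stc2, which encodes an inhibitor of PAPP-A and PAPP-A2, fell by 1.23 under rapamycin (limma adjusted p = 0.0102) and differed by 0.52 with vehicle (limma adjusted p = 0.248). The Stc2 call was lost in 2 of 19 alternatives, over which the difference ranged from -1.62 to -0.50. Htra1, a serine protease that cuts IGFBP-5, fell by 0.96 under rapamycin (limma adjusted p = 0.0251), a call lost in 9 of 19 alternatives. With array brightness as a covariate its difference was 0.12.

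Of the 7 adaptor genes, Shc1 rose and Grb14 fell in both comparisons, the call of Shc1 with vehicle being lost in 10 of 18 alternatives. Grb14 encodes an adaptor that inhibits insulin receptor signalling, and it fell by 1.58 with vehicle (SE 0.22, limma adjusted p = 0.00110) and by 1.89 under rapamycin. Its relative Grb10 rose by 1.92 under rapamycin (limma adjusted p = 0.00347) and differed by 1.11 with vehicle (limma adjusted p = 0.0554). The Grb10 call was lost in 1 of 19 alternatives, over which the difference ranged from 0.41 to 2.49. Irs1, the insulin receptor substrate, fell by 1.13 under rapamycin (limma adjusted p = 0.00503) and differed by -0.67 with vehicle (limma adjusted p = 0.0677). The Irs1 call was lost in 3 of 19 alternatives, over which the difference ranged from -1.33 to -0.44. The test for the dependence of the drug difference on the challenge passed for none of these.

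Of the 10 genes listed for the PI3-kinase and Akt branch, 2 fell with vehicle, beside 10.8% of all probes, and 4 under rapamycin, beside 22.9%, and none rose. Pik3cb, a catalytic subunit of PI3-kinase, and the transcription factor Foxo1 fell in both, Pik3cb by 1.39 and 1.55 and Foxo1 by 0.69 and 0.97. With vehicle the Pik3cb call was lost in 11 of 18 alternatives and the Foxo1 call in 9 of 18. Under rapamycin the Pik3cb call was lost in 4 of 19, over which the difference ranged from -1.99 to -0.30. The Foxo1 call there was lost in 2 of 19, with a range of -1.30 to -0.57. Pdpk1 and Foxo3 passed the test for the challenge in rapamycin-treated mice but not with vehicle, a difference that did not pass in the test of dependence. The Pdpk1 call was lost in 13 of 19 alternatives, and the Foxo3 call in 4 of 18 besides the 1 that turned its sign. Foxo3 was well above background on 2 of the 3 BA+rapamycin arrays. Of 4 growth hormone axis genes, Stat5b, a transducer of the growth hormone receptor, fell by 0.81 and 0.62.

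At the Igf2 locus, H19 rose by 3.73 with vehicle (SE 0.81, limma adjusted p = 0.0102) and by 2.80 under rapamycin (limma adjusted p = 0.0192). Its levels were -1.23, -2.90 and -1.90 in DMSO and 3.48, -0.58 and 2.28 in BA+DMSO, so that BA+DMSO replicate 2 lay near the vehicle arrays. Igf2bp2, whose protein binds Igf2 mRNA and other transcripts, rose by 0.82 (limma adjusted p = 0.0127) and 1.53 (limma adjusted p = 0.000378). With vehicle the Igf2bp2 call was lost in 7 of 18 alternatives and the H19 call in 4 of 18, and the H19 call under rapamycin in 6 of 19. With the slide as a fixed block none of the 29 genes was called for the challenge with vehicle, and 15 of all probes were. The differences were then 2.51 for Adam12 (SE 0.51), -1.42 for Grb14 (SE 0.41), 3.24 for H19 (SE 1.51) and -0.74 for Stat5b (SE 0.29).

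**Figure D4:**
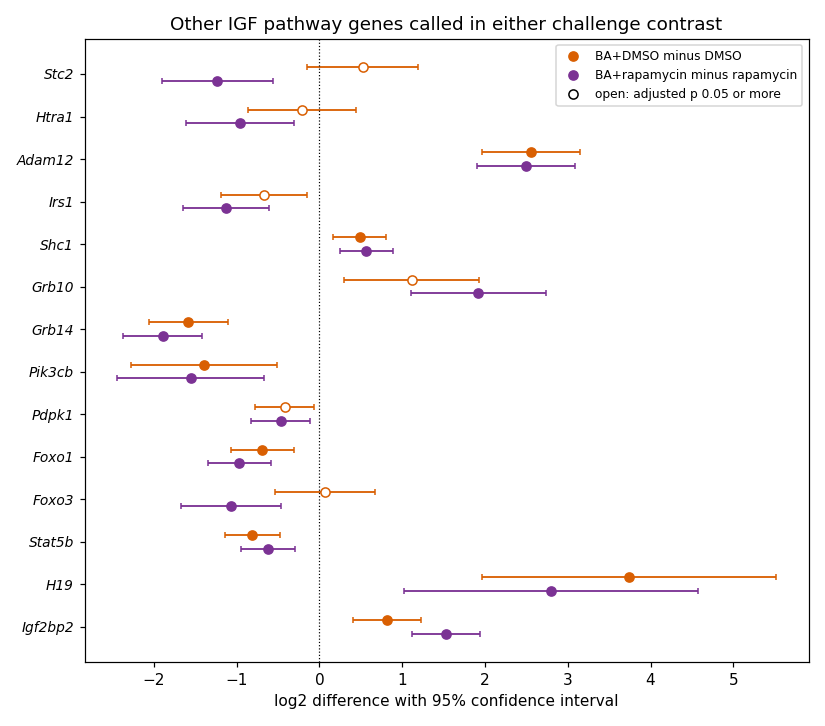
Log2 difference with its 95% confidence interval for the 14 other pathway genes called in either challenge comparison (n = 3 arrays a group, filled points called at a limma adjusted p under 0.05). Adam12, Shc1, Grb10, H19 and Igf2bp2 are to the right of 0 in both comparisons, and Grb14, Irs1, Htra1, Pik3cb, Pdpk1, Foxo1 and Stat5b to the left.

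Markers of other cells moved with the challenge as well, beside 9.65% of all probes called higher with vehicle and 18.9% under rapamycin, and 10.8% and 22.9% called lower. Of 8 macrophage markers tested, 7 rose with vehicle and 5 under rapamycin, and their summed level, in multiples of the 75th percentile, was 110 to 141 in DMSO against 187 to 491 in BA+DMSO, with 375 to 501 in BA+rapamycin. All 5 proliferation markers rose in both, with sums of 1.24 to 1.39 in DMSO and 11.6 to 56.2 in BA+DMSO. Of 8 fibroblast markers, 2 rose with vehicle and 3 under rapamycin. Of 5 mesothelial markers 4 rose with vehicle and 0 under rapamycin, with sums of 0.49 to 3.12 in DMSO and 6.20 to 13.5 in BA+DMSO. The 6 liver and kidney markers were too dim to be tested, with Apoa1, Kap, Umod and Slc34a1 well above background on none of the 12 arrays, Alb on 4 and Ttr on 1. Of 7 endothelial markers, 2 rose with vehicle, and 1 rose and 2 fell under rapamycin. None of 6 adipocyte markers was called, though their sums were 34.4 to 49.3 in DMSO and 44.7 to 188 in BA+DMSO and their median difference with vehicle was 1.44. Of 3 striated muscle markers, 0 were called with vehicle and 1 fell under rapamycin. Of 8 smooth muscle markers 0 rose and 1 fell with vehicle, 1 rose and 1 fell under rapamycin, and their sums were 2983 to 3190 in DMSO and 2497 to 4936 in BA+DMSO. The part of these cell types in the values of Igf1, Igfbp2 and the other members was not tested.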

How the data were processed

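Total RNA of an aortic segment was labelled with Cy3 and hybridised to 1-colour Agilent mouse arrays, 1 per mouse. The authors deposited scanner output whose processed signal is an intensity per spot, background-subtracted by Feature Extraction (10.7.1.1 per the file headers, 9.5.1.1 in the submitters' processing notes). The tests used limma 3.58.1 in R 4.3.3. Spots with an outlier flag were dropped, spots of a probe averaged, and log2 signal taken minus the array's 75th percentile. Probes entered the tests with 0.5 or more of their spots well above background on each of the 3 arrays of some group (27801 of 55675). One fit over the 12 arrays held a mean for each group, and p-values were adjusted by Benjamini-Hochberg over all probes tested. Each gene is named by its tested probe of highest mean. The members and lists were chosen with earlier results of these data known. Some genes are not reported here. Of the other pathway genes listed, those called in a comparison are named, and as most like Pappa2 and Pappa the 5 genes of highest correlation. The script was tested on simulated data. Gene names are those of the array files. Upstream sequences are from RefSeq (GRCm38.p6), in which Pappa was not matched. Array coordinates are of build mm9, so neither set was placed on the other. No proteins are shown. Columns of the authors' series table were used only as an alternative normalization.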

Additional observations from a re-analysis of the deposited data

How the results depend on the processing

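The replicate numbers used here follow accession order and join no mice. The titles hold dates and numbers, and 2 DMSO and 2 rapamycin arrays share both, as do DMSO replicate 1 and BA+rapamycin replicate 3, whose groups are not compared directly. A fit with title date and number as a replicate block called 0 members for rapamycin alone, as within that date, and the deviations of the 2 DMSO and rapamycin pairs correlated at -0.072 over probes. The title date as a block compares single challenged arrays, the lone BA+DMSO array being assumed to vary like the other groups, so its values say nothing about stability. The 5 members called for the challenge (5697 of all probes) became 0 with the slide as a fixed block (15 probes), 1 with array weights (112 probes; the weights did not converge) and 2 with a fit of only the arrays compared (1244 probes), the title date as a block (1712) or the study's rule (p under 0.01 and a 4-fold change). Leaving out each array in turn gave 4 to 6, with 2051 (without DMSO replicate 2) to 10574 probes (without BA+DMSO replicate 3). With the slide as a random block 5 members and 10270 probes were called. For the drug in challenged mice, the comparison that chose Pappa2 and so supports nothing, the 1 member past the threshold (78 probes) became 2 with quantile normalization, the 75th percentile over detected probes, the series table or the study's rule, and 0 with array weights, only the groups compared, the title date as a block or within 1 slide (0 probes each), and 1 to 3 without single arrays (3 without BA+DMSO replicate 2, where 11092 probes passed). For rapamycin alone, the count of 0 (1 probe) became 2 with array weights (Igfbp4 and Pappa2, with 1512 probes) and was 0 without each array. For the challenge under rapamycin, 6 (11602 probes) became 3 with array brightness as a covariate (1786 probes), which like the title date as a block was chosen after seeing the data, and 2 with that block (3625 probes) or the study's rule, and was 4 to 8 without single arrays. For the dependence of the drug difference on the challenge, 0 became 2 without BA+DMSO replicate 2, where 3058 probes passed against 0, the range over arrays being 0 to 2. The 8 other pathway genes called for the challenge became 5 with no filter on dim probes, 0 with the slide as a fixed block, 14 with it as a random block, 3 with the title date as a block, 0 with array weights, 2 with only the groups compared and 2 with the study's rule. Without single arrays they were 3 (DMSO replicate 2) to 14 (BA+DMSO replicate 3), and 5 without DMSO replicate 1 or 3 or BA+DMSO replicate 1. The 14 called under rapamycin became 23 with array weights, 6 within 1 slide, 5 with brightness or the title date as a block and 2 with the study's rule, and were 9 (without rapamycin replicate 3) to 22 (without BA+DMSO replicate 2). Fewer arrays in the fit, or the stricter rule, are part of how some of these were built, and otherwise the cause was not tested.

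Signs turned for a few values, most of which had not passed the test. The challenge difference of Igfbp5 was -0.045 with normexp background correction, -0.18 with array weights, -0.23 without BA+DMSO replicate 2 (0.70 without replicate 3) and -0.76 with brightness (limma adjusted p = 0.0127 for the last). That of Igfbp6 was -0.42 with the slide as a fixed block, -0.37 with the title date as a block and -0.061 without DMSO replicate 3 (0.75 without replicate 1), and that of Pappa -0.29 with brightness. Pappa was -0.17 for rapamycin alone without DMSO replicate 2 and 0.71 without replicate 1. Under rapamycin, the brightness covariate gave -0.78 for Igfbp5 and -0.27 for Pappa. Called genes that turned under rapamycin were Htra1 (0.12 with brightness), Foxo3 (0.10 with normexp) and Igfbp4 (-0.028 with the title date as a block). With that block the drug difference of Pappa in challenged mice was -0.60, which is 1 array minus 1 array. Igf1 and Igfbp2 stayed higher and Igf1r lower in both challenge comparisons under each alternative. That block aside, Igf1 was 2.64 to 3.67 and Igfbp2 1.38 to 4.18. Pappa2, chosen on these arrays, is left out. With quantile normalization the median of all probes moved to -0.10 for the challenge and -0.18 under rapamycin. Signal over background limits Igf2, Igfbp3 and the second Pappa2 probe.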
